A study of Mus musculus with 23 samples.

Results

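The type I interferon-stimulated genes are 37 genes that were taken as a list of symbols of known targets of the interferon response, out of 47729 gene identifiers in the count table. All 37 were found in the table, and all 37 were among the 19597 genes that passed the filter on low counts and were tested. They were measured by RNA sequencing of dendritic cells (DCs) sorted from the spleen of adult wild-type Balb/C mice, with a small sorted sample of cells per library. The 23 libraries came from mice that were untreated or had received TLI, an abbreviation that the labels leave unexpanded. Each library was made from a pool of mice and from 1 of 4 gates: DC1a (CD8hi CD172-), DC1b (CD8Int CD172+), DC2 (CD8lo CD172hi) and DC3 (CD8- CD172lo). There were 2 untreated libraries per gate, 4 TLI libraries of DC1a, DC1b and DC3, and 3 of DC2, because no DC2 library of TLI pool 2 was present. The untreated pools and TLI pools 1 and 2 belonged to batch 1, and TLI pools 3 and 4 to batch 2. No allele or transgene was carried by any group, and the populations of a pool came from the same mice.

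Type I interferons bind the receptor chains IFNAR1 and IFNAR2, which signal through the kinases JAK1 and TYK2 to a complex of transcription factors. This complex enters the nucleus and binds the interferon-stimulated response element (ISRE) in front of its target genes, whose products block viral RNA, viral assembly or translation, or feed back on the pathway. Dendritic cells both make and sense interferon, and plasmacytoid DCs are known as the main producers in the spleen. Many of the genes are also transcribed at a low level with no infection.

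Total counts ranged from 19256447 to 36997890 per library (median 27199618), and 3 counts, taken as the floor of detection, were worth 0.0862 to 0.147 CPM, the count scaled to a common library size. Markers of cDC1 cells summed to 3025 to 5377 CPM in DC1a libraries and to 202 to 453 CPM in DC2 libraries, and markers of cDC2 cells to 25.4 to 50.1 and 1121 to 2021 CPM, so both gates matched their labels by these sums. DC1b and DC3 libraries had 926 to 1833 and 2128 to 3114 CPM of cDC1 markers and 211 to 1267 and 124 to 254 CPM of cDC2 markers. In some libraries a gene of the sorting markers went against the label. The library labelled TLI DC1b pool 4 (CD8Int) had Cd8a at 0.363 CPM, against 85.5 to 352 CPM in the other 5 DC1b libraries and 0.251 to 0.986 CPM in DC2 libraries. The library labelled TLI DC2 pool 3 (CD172hi) had Sirpa, which encodes CD172, at 8.79 CPM, against 34.0 to 282 CPM in the other 4 DC2 libraries. Sirpa was also low in TLI DC1b pools 3 and 4 (CD172+), at 5.51 and 7.26 CPM. The other DC1b libraries had 11.6 to 162.5 CPM and the TLI DC3 libraries (CD172lo) 0.540 to 6.30 CPM. Cd8a was at 37.9 CPM in untreated DC3 pool 2 (CD8-), against 0.352 CPM in untreated DC3 pool 1. The 15 plasmacytoid DC markers, which include the member Bst2 and were all over the floor in both libraries, summed to 7299 to 10670 CPM in untreated DC1b cells and to at most 1264 CPM in any other group. Neutrophil markers summed to 1463 to 23420 CPM in TLI DC1b cells and to at most 19.1 CPM in untreated DC1b cells. Monocyte and macrophage markers summed to 8695 to 26820 CPM in TLI DC1b cells against 3124 to 5201 CPM untreated, and erythroid markers reached 138400 CPM in a TLI DC3 library. In such bulk libraries fewer cells of a type and less RNA per cell cannot be told apart. Nothing states that pools of 1 group were treated on separate occasions, so the p-values measure the spread between these pools.

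To show the sequence that the pathway acts through, the promoter windows of the members were searched for GAAA followed by any pair of bases and GAAA again, the core of an ISRE, and TTCNNNGAA, the core of the gamma-activated sequence (GAS), on both strands. Each window ran from 250 bases before to 50 bases after an annotated start (RefSeq, GRCm38.p6), and 27 of the 37 members had one. The ISRE-like letters were found in 15 of the 27 members (55.6%) and in 3.99% of all 27025 genes with a window. They occurred at 2 or more places of 1 window in 7 of the 27 members (25.9%) and in 0.266% of all genes. The GAS-like letters were found in 6 of 27 members (22.2%) and in 9.55% of all genes, and 1 of the matches overlapped an ISRE-like match, in the window of Bst2. Upstream of the start, 12 members held an ISRE-like match. No window was listed for Mx1, Mx2, Oas2, Usp18, Dhx58, Zbp1, Rtp4, Parp9, Parp14 and Ifi27l2a.

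**Figure D1:**
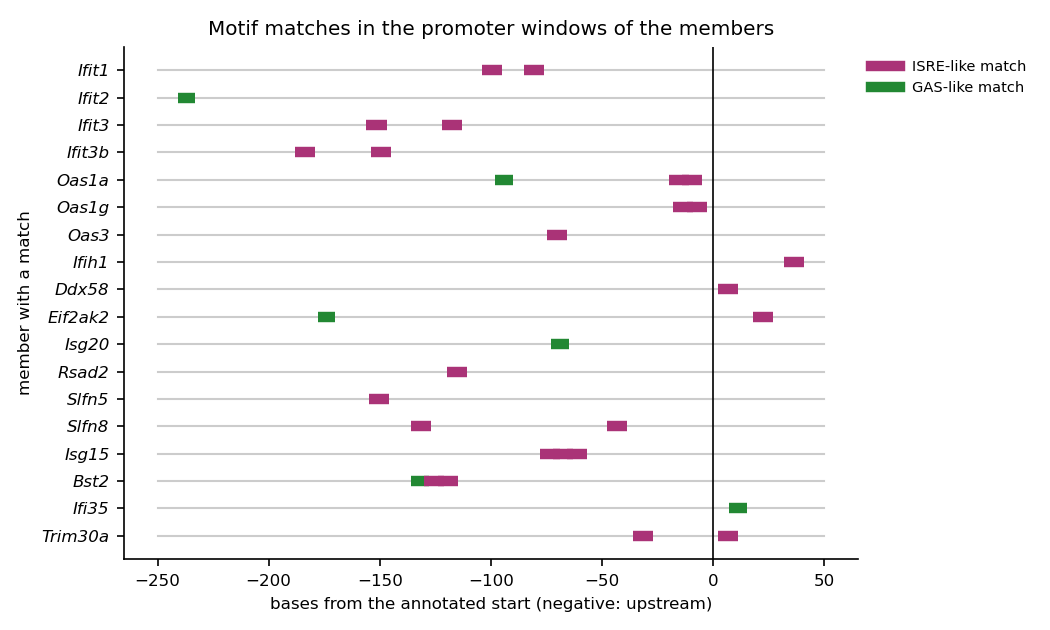
Positions of ISRE-like and GAS-like letters in the promoter windows of the 18 members with a match, with the distance from the annotated start in bases on the x axis. Ifit1, Ifit3, Ifit3b, Oas1a, Oas1g, Isg15 and Bst2 hold at least 2 ISRE-like matches in 1 window, and the 2 marks of Slfn8 are the same letters seen from 2 annotated starts, while those of Trim30a lie in 2 separate windows.

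The stretches below belong to the members whose values the comparisons turn on or that have a near-identical copy among the members. Capitals mark the ISRE-like letters on either strand, and each stretch is written 5′ to 3′ on the strand of its gene. They lie at chr19:34583353-34583436 (+) for Ifit3, chr19:34607749-34607832 (+) for Ifit3b, chr5:120907526-120907565 (-) for Oas1a, chr5:120887614-120887651 (-) for Oas1g, chr12:26456543-26456592 (-) for Rsad2, chr7:104465200-104465249 (-) for Trim30a and chr8:71537567-71537622 (-) for Bst2. The 84 bases of Ifit3 and Ifit3b were identical, as were the first 38 bases of the Oas1a and Oas1g stretches.
Ifit3: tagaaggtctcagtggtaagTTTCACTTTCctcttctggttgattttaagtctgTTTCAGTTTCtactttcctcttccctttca
Ifit3b: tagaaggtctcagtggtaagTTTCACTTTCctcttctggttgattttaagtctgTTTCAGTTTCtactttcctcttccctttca
Oas1a: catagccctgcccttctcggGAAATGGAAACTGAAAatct
Oas1g: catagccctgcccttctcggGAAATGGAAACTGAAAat
Rsad2: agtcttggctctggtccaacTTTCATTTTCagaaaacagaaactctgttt
Trim30a: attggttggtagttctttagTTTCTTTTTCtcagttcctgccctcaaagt
Bst2: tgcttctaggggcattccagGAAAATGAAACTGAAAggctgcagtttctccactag

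The module was expressed in every library, and its level differed between the sorted populations. Between 25 and 37 members reached 1 CPM in a library, while 54.2% to 63.9% of all genes tested did. In DC2 cells 33 to 37 members reached 1 CPM after TLI and 33 in both untreated libraries, against 25 to 27 in untreated DC1a cells and 25 to 31 in TLI DC3 cells. Per kilobase of exon, Ifi27l2a, a small mitochondrial membrane protein, had the highest mean level (2067 CPM per kb), followed by Ifi35 (115 CPM per kb), Trim30a (37.7) and Samd9l (28.9). The lowest was Oasl2 (0.925 CPM per kb). Exons of Ifi35 overlap Gm11626 on the other strand, and counting by strand was not stated, so part of its counts is uncertain.

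**Figure D2:**
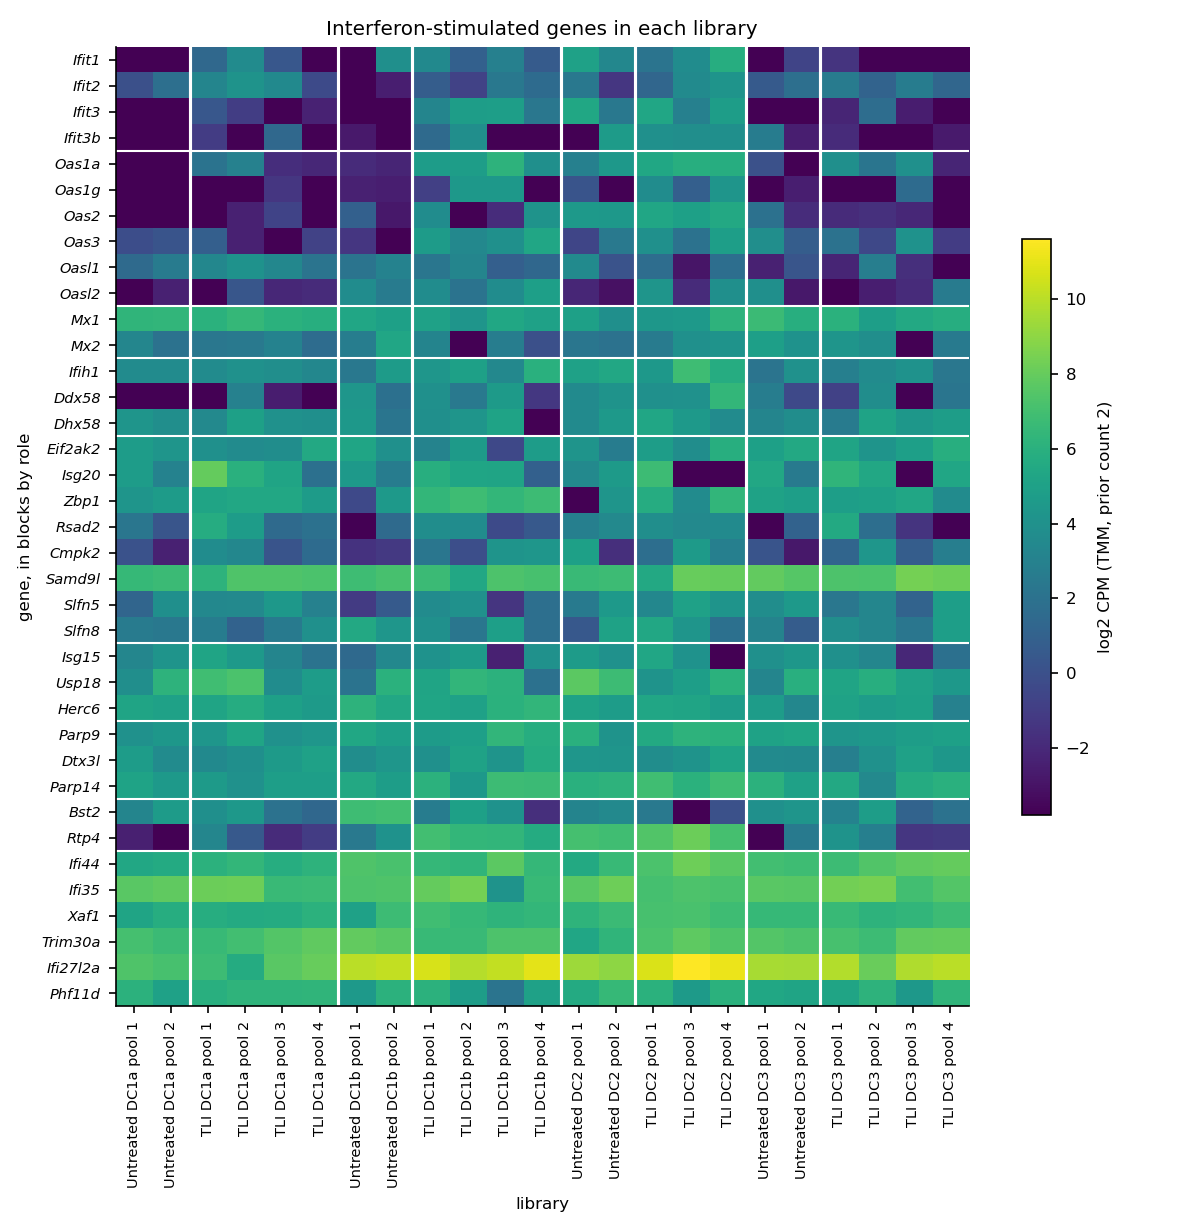
Level of each of the 37 members (rows, in blocks by role) in each of the 23 libraries (columns) as log2 CPM, in colour from dark (low) to yellow (high). Ifi27l2a is the brightest row in the DC1b, DC2 and DC3 libraries except TLI DC3 pool 2, where Ifi35 is. Ifit1, Ifit3, Ifit3b, Oas1a, Oas1g, Oas2 and Ddx58 were all at 0 in untreated DC1a cells, and Ifit3 was also at 0 in untreated DC1b and DC3 cells.

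The mean log2 CPM over the members (computed with a prior count of 2), a description without a test, was highest in DC2 cells. In untreated mice it was 2.20 ± 0.01 (SD, n = 2) in DC1a, 2.88 ± 0.35 in DC1b, 3.91 ± 0.10 in DC2 and 2.97 ± 0.24 in DC3 cells. In TLI mice it was 3.05 ± 0.55 (n = 4) in DC1a, 4.00 ± 0.44 (n = 4) in DC1b, 4.66 ± 0.35 (n = 3) in DC2 and 2.92 ± 0.48 (n = 4) in DC3 cells. Within each of the 5 pools with a DC2 library, that library was the highest of its pool. The neighbours DC1b and DC3 in untreated mice, and DC1a and DC3 in TLI mice, differed by less than their spread. By gene, DC2 cells had the highest mean for 22 of the 37 members after TLI, compared with 28% of all genes, and for 19 of 37 in untreated mice, compared with 27.9% of all genes.

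**Figure D3:**
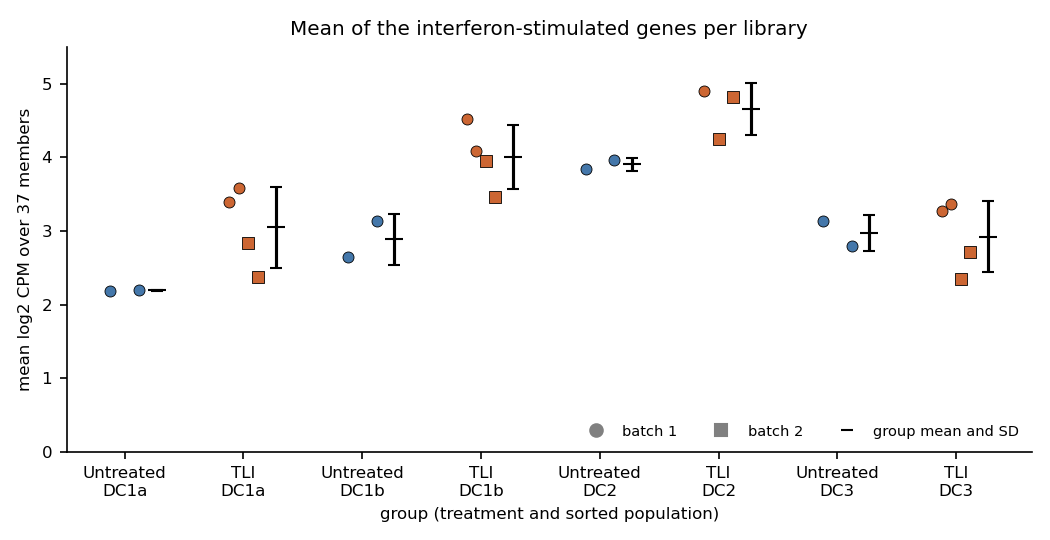
Mean log2 CPM over the 37 members in each library (blue untreated, orange TLI, circles batch 1, squares batch 2), by treatment and population, with the group mean and SD beside them. The untreated DC2 libraries lie at 3.84 and 3.97 and the TLI DC2 libraries at 4.25 to 4.90, above the other populations of the same pool.

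Among TLI populations, DC2 and DC1b cells had more Ifi27l2a and Rtp4 RNA than DC1a cells. Ifi27l2a (chr12:103442167-103443680, minus strand) was at 109, 51.9, 205 and 262 CPM in DC1a pools 1 to 4, at 1680, 959, 1179 and 2039 CPM in DC1b pools 1 to 4, and at 1697, 3145 and 2286 CPM in DC2 pools 1, 3 and 4. It was at 927, 271, 896 and 1050 CPM in DC3 pools 1 to 4. Every DC1b, DC2 and DC3 library lay above every DC1a library, and DC3 pool 2 was closest to DC1a.

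Relative to DC1a cells, Ifi27l2a rose by a log2 fold change of 3.39 ± 0.38 (SE) in DC1b (edgeR adjusted p = 5.718e-05), 3.90 ± 0.40 in DC2 (edgeR adjusted p = 1.645e-05) and 2.43 ± 0.37 in DC3 cells (edgeR adjusted p = 0.00201). The ratios of the mean CPM were 9.32, 15.1 and 5.0. The first and second calls held in all 10 other fits and in all 23 fits that left out 1 library, with adjusted p of at most 0.0270 and 0.0186. The DC3 call was past the threshold in 8 of 10 other fits and was lost within batch 1 (2.96, adjusted p = 0.189) and within batch 2 (2.15, adjusted p = 0.107), each of which holds 2 pools.

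Rtp4 (chr16:23520291-23614222, plus strand), a chaperone that carries receptors to the cell surface, was at 9.68, 1.34, 0.193 and 0.421 CPM in TLI DC1a pools 1 to 4. It was at 126, 83.7, 80.7 and 52.3 CPM in DC1b pools 1 to 4, at 175, 282 and 136 CPM in DC2 pools 1, 3 and 4, and at 17.6, 7.14, 0.324 and 0.345 CPM in DC3 pools 1 to 4. The DC1b and DC2 libraries did not overlap with those of DC1a or DC3. Its log2 fold change was 6.16 ± 1.43 in DC1b versus DC1a (edgeR adjusted p = 0.0377), 8.01 ± 1.59 in DC2 versus DC1a (edgeR adjusted p = 0.00795) and -7.07 ± 1.58 in DC3 versus DC2 cells (edgeR adjusted p = 0.0326). Ratios of mean CPM were 29.4 and 68.1 for the first and second, and the DC2 mean was 31.1 times that of DC3. Exons of Rtp4 overlap those of Gm45338 on the same strand.

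The first Rtp4 call was lost in 10 of 23 fits that left out 1 library, those without TLI DC1a pools 2 to 4, TLI DC1b pools 3 and 4, TLI DC3 pool 4, or either untreated DC1b or DC2 library (adjusted p up to 0.157, without TLI DC1a pool 4). The second was lost in none. The third was lost in 7 of 23, those without TLI DC3 pools 2 to 4, TLI DC2 pools 3 and 4, or TLI DC1a pools 3 and 4 (adjusted p up to 0.129, without TLI DC3 pool 3). Within batch 1 the log2 fold changes were 4.30, 5.04 and -3.83, with adjusted p of 0.590, 0.408 and 0.685.

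**Figure D4:**
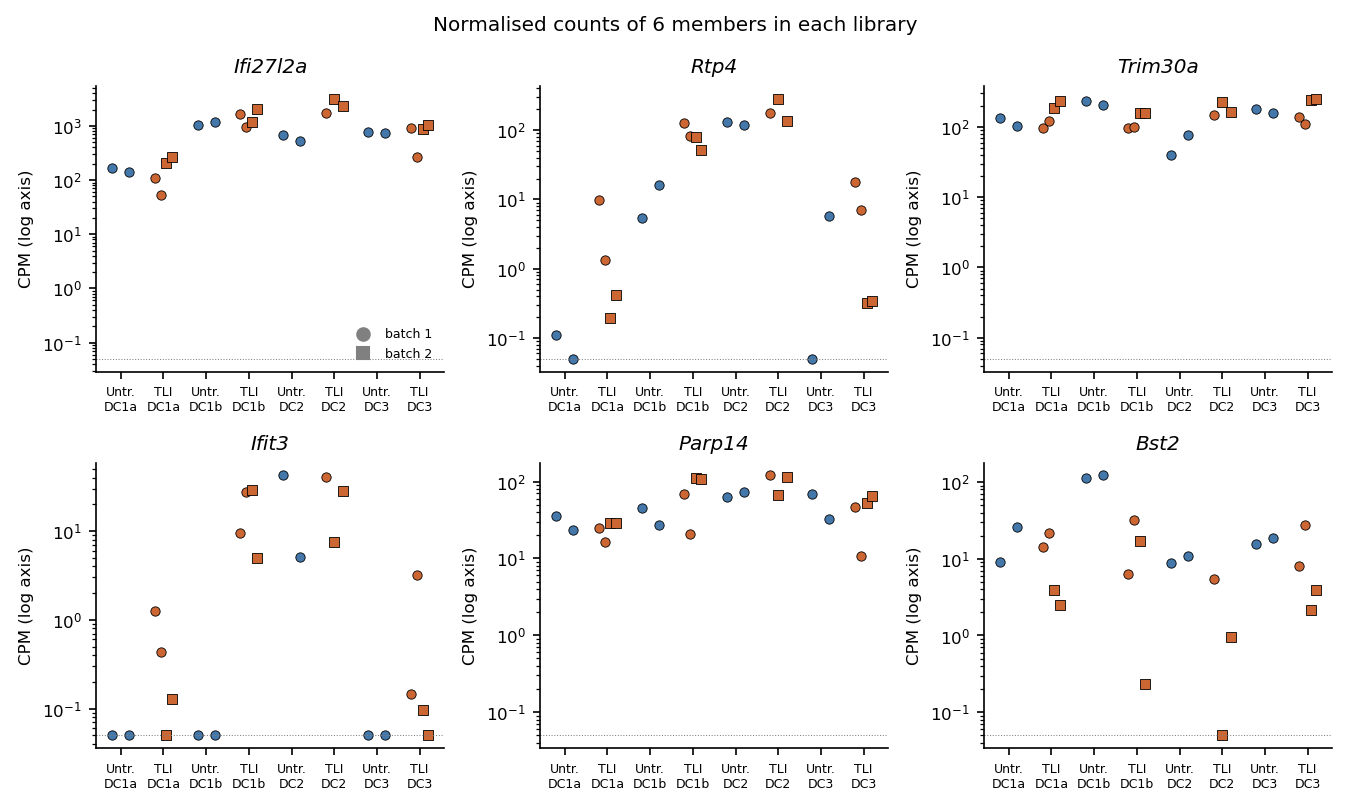
CPM of 6 members in each library on a log axis (blue untreated, orange TLI, circles batch 1, squares batch 2), with the populations side by side. Libraries at 0 are drawn at 0.05 on the dotted line, and Ifi27l2a and Rtp4 are low in DC1a while Bst2 stands at 112 and 122 CPM in untreated DC1b cells.

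In TLI DC2 versus DC1a cells 6 of the 37 members were past the threshold of a Benjamini-Hochberg adjusted p of 0.05 in edgeR's quasi-likelihood test, all higher in DC2, compared with 3.4% of all genes. Beside Ifi27l2a and Rtp4 these were Ifit3, Parp14, Ifi44 and Xaf1. The median log2 fold change of the members was 1.24, against 0.02 over all genes tested, and 28 of the 37 were positive, against 50.6% of all genes. The libraries did not overlap for 14 members that were higher in DC2 and 1 that was lower (7.61% and 7.06% of all genes). Within batch 1 Ifi27l2a alone was past the threshold, and within batch 2 Ifi27l2a and Rtp4 were. With the pool as a block, 3 members remained past the threshold (Ifi27l2a, Rtp4 and Xaf1). Ifit3, Ifi44 and Parp14 then had adjusted p of 0.0833, 0.0661 and 0.0803.

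Ifit3 (chr19:34583531-34588731), whose protein stabilises IFIT1 on viral RNA that lacks a methylated cap, was at 1.26, 0.434, 0 and 0.129 CPM in TLI DC1a pools 1 to 4 and at 40.6, 7.47 and 28.01 CPM in DC2 pools 1, 3 and 4. The groups did not overlap, and the log2 fold change was 6.98 ± 1.74 (edgeR adjusted p = 0.0424). The call held in 11 of 23 fits that left out 1 library. It was lost without any 1 of the 7 libraries compared (adjusted p = 0.0568 to 0.124), and without untreated DC1a pool 1 or 2, untreated DC2 pool 1, TLI DC3 pool 3 or TLI DC1b pool 4 (0.0518 to 0.0568). Ifit3 and Ifit3b are near-identical copies, so reads may have been split between them.

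Parp14 (chr16:35832874-35871544), an ADP-ribosyltransferase that acts with PARP9 and DTX3L, was at 24.6, 16.2, 28.6 and 28.7 CPM in TLI DC1a pools 1 to 4 and at 120, 66.2 and 114 CPM in DC2 pools 1, 3 and 4. With no overlap between the groups, the log2 fold change was 2.02 ± 0.51 (edgeR adjusted p = 0.0354), and it was lost in 10 of 23 fits that left out 1 library (adjusted p up to 0.185, without TLI DC2 pool 1). These were any TLI DC1a library, TLI DC2 pools 1 and 4, and any untreated DC1a or DC2 library. Parp14 shares exons with Gm49730 on its strand.

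Ifi44 (chr3:151730922-151749960), a GTPase-like protein of the cytoplasm, was at 68.2, 86.6, 55.2 and 71.8 CPM in TLI DC1a pools 1 to 4 and at 151, 293 and 204 CPM in DC2 pools 1, 3 and 4. The log2 fold change was 1.46 ± 0.35 (edgeR adjusted p = 0.0280) with no overlap, and the call was lost without TLI DC1a pool 1, 3 or 4 (adjusted p = 0.0547, 0.114 and 0.105) or TLI DC2 pool 3 (adjusted p = 0.0955). Xaf1 (chr11:72301629-72313733), which promotes cell death by binding the inhibitor XIAP, was at 55.8, 49.4, 50.9 and 69.9 CPM in DC1a and at 141, 146 and 113 CPM in DC2 cells. Its log2 fold change of 1.24 ± 0.33 lay close to the threshold (edgeR adjusted p = 0.0487) and kept its call in 5 of 23 fits that left out 1 library, namely TLI DC1b pool 2 or 3, TLI DC3 pool 2 or an untreated DC1b library (adjusted p up to 0.135 otherwise).

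In TLI DC1b versus DC1a cells 2 members, Ifi27l2a and Rtp4, were past the threshold, compared with 1.42% of all genes, and the median log2 fold change was 0.70 over the members and 0.02 over all genes. In TLI DC3 versus DC1a cells 1 member was (Ifi27l2a; 0.75% of all genes), and in TLI DC3 versus DC2 cells 1 member was (Rtp4, lower; 1.37% of all genes). TLI DC2 versus DC1b cells had 0 of 37 members past edgeR's threshold (0.214% of all genes), with 2 at an unadjusted p under 0.05 (10.4% of all genes), 0 by DESeq2 and 0 by limma-voom. For TLI DC3 versus DC1b cells edgeR called 0 of 37 (1.11% of all genes), with 11 at an unadjusted p under 0.05 (11.9%), 4 by DESeq2 and 3 by limma-voom. Their median log2 fold changes were 0.50 and -0.81. The DESeq2 and limma-voom counts have no share over all genes beside them and are not read as results about the members.

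Without the library labelled TLI DC2 pool 3, whose Sirpa level was low, 3 members were past the threshold in TLI DC2 versus DC1a cells (Ifi27l2a with edgeR adjusted p = 9.556e-05, Rtp4 with 0.0206 and Parp14 with 0.0266). Ifit3, Ifi44 and Xaf1 then had adjusted p of 0.0608, 0.0955 and 0.130, and Rtp4 in TLI DC3 versus DC2 cells 0.0710. Without the library labelled TLI DC1b pool 4, whose Cd8a level was low, Ifi27l2a remained past the threshold in TLI DC1b versus DC1a cells (edgeR adjusted p = 2.959e-04) and Rtp4 did not (adjusted p = 0.0630). The mean over the members was then 4.86 log2 CPM in TLI DC2 and 4.19 log2 CPM in TLI DC1b cells.

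Monocyte, macrophage and neutrophil markers were also higher in DC1b and DC2 than in DC1a libraries, with the highest sums in DC1b. Over the 12 monocyte and macrophage markers, the summed level after TLI was 535 to 1851 CPM in DC1a, 8695 to 26820 CPM in DC1b, 5732 to 12800 CPM in DC2 and 1331 to 3709 CPM in DC3 libraries. Neutrophil markers summed to 7.61 to 13.4, 1463 to 23420, 109 to 2159 and 3.97 to 92.1 CPM in the same order. Their part in the differences of Rtp4, Ifit3 and Ifi27l2a was not tested.

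Among untreated populations, single members passed. Between DC1b and DC1a cells this was Ifi27l2a (1 of 37, compared with 0.837% of all genes), at 1056 and 1203 CPM in DC1b pools 1 and 2 against 164 and 143 CPM in DC1a pools 1 and 2. The log2 fold change was 2.88 ± 0.53 (edgeR adjusted p = 0.0124) and the ratio of the mean CPM 7.34. The call was lost without untreated DC1a pool 1 or 2 or DC1b pool 2 (adjusted p = 0.181, 0.213 and 0.0742), each of which leaves a group with 1 library, and without a batch term (0.0831).

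In untreated DC2 versus DC1a cells the member past the threshold was Rtp4 (1 of 37, compared with 1.91% of all genes), at 132 and 119 CPM in DC2 pools 1 and 2 against 0.111 and 0 CPM, or 3 and 0 counts, in DC1a pools 1 and 2. With so few counts in DC1a cells the fitted log2 fold change of 10.99 (edgeR adjusted p = 0.0271) is no measure of size. With the pool as a block the adjusted p was 0.149, without a batch term 0.0957 and in a fit of the untreated libraries alone 0.100, and the call was lost without any 1 of the 4 libraries compared (adjusted p = 0.0694 to 0.299). The median log2 fold change over the members was 0.80, against 0.11 over all genes.

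Trim30a (chr7:104409025-104465193, minus strand), a TRIM protein known to dampen NF-kB signalling, went the other way in untreated DC2 cells. It was at 39.5 and 76.9 CPM in DC2 pools 1 and 2, at 237 and 206 CPM in DC1b, at 180 and 159 CPM in DC3 and at 134 and 103 CPM in DC1a. The DC2 libraries lay below all other untreated libraries. The log2 fold change was -1.93 ± 0.32 in DC2 versus DC1b cells (edgeR adjusted p = 0.00873), the only member past the threshold there (0.398% of all genes). In DC3 versus DC2 cells it was 1.54 ± 0.32 (edgeR adjusted p = 0.0254), again the 1 member past the threshold (0.837% of all genes). With the pool as a block both calls were lost (adjusted p = 0.187 and 0.185), as they were without a batch term (0.224 and 0.329), without a filter (0.0756 and 0.206), in a fit of the untreated libraries alone (0.0971 and 0.110) and without untreated DC2 pool 1 (0.140 and 0.299). The first was also lost without untreated DC1b pool 1 (adjusted p = 0.0922), and the second without untreated DC3 pool 1 or 2 (adjusted p = 0.170 and 0.122).

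For untreated DC3 versus DC1a cells edgeR called 0 of 37 members (0.184% of all genes), with 9 at an unadjusted p under 0.05 (7.47%), 6 by DESeq2 and 0 by limma-voom. Untreated DC3 versus DC1b cells also had 0 by edgeR (0.393% of all genes), 4 at an unadjusted p under 0.05 (8.43%), 2 by DESeq2 and 0 by limma-voom. Here too the DESeq2 and limma-voom counts lack a share over all genes and are not read as results about the members.

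The comparison of TLI with untreated mice asks whether the treatment changed the module within a population. No member was past the threshold of edgeR's quasi-likelihood test in any of the 4 populations, where 0.0102%, 0.413%, 0.0612% and 0.0255% of all genes were called in DC1a, DC1b, DC2 and DC3 cells. Before adjustment, 5, 8, 4 and 2 of the 37 members had a p under 0.05, compared with 9.76%, 12.4%, 9.01% and 10.4% of all genes. DESeq2 called 5, 7, 1 and 1 members, where it called 3.64%, 6.27%, 4.15% and 3.53% of all genes. Limma-voom called 0, 5, 0 and 0, for which no share over all genes is given.

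The median log2 fold change of the members was 0.59 in DC1a, 0.64 in DC1b, 0.86 in DC2 and -0.01 in DC3 cells, while over all genes it was 0.15, 0.09, 0.02 and -0.05. Positive values were found for 26, 27, 30 and 18 of the 37 members, against 54.1%, 52.5%, 50.8% and 48.6% of all genes. The mean over the members was higher in TLI than in untreated libraries by 0.85, 1.12 and 0.75 log2 units in DC1a, DC1b and DC2 cells, and differed by -0.05 in DC3 cells. Batch 1, the only batch with untreated pools, gave 1.29, 1.42, 0.99 and 0.35, and the TLI pools of batch 2 against the same untreated pools gave 0.41, 0.82, 0.63 and -0.44. The sign of the DC3 difference therefore depended on the batch.

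Libraries of TLI and untreated mice did not overlap for 4, 7, 10 and 1 members that were higher after TLI (5.65%, 8.29%, 10.7% and 4.21% of all genes) and for 0, 2, 3 and 1 that were lower (7.58%, 11.6%, 14.3% and 9.29% of all genes). Markers of other cells stood at different levels in the treatments. Erythroid markers summed to 172 to 138400 CPM in TLI and to 51.4 to 2138 CPM in untreated libraries, and the ranges of the monocyte, macrophage and neutrophil markers in DC1b cells did not overlap, as given above. Over the 4 populations, the median log2 fold change was 6.40 to 11.36 for the 8 erythroid, 6.02 to 10.83 for the 10 neutrophil, 2.82 to 9.73 for the 8 natural killer cell and 6.69 to 9.22 for the 8 T cell markers. Most of these markers were not called, and fitted values of genes with few counts in a group are no measure of size. Of these lists, edgeR called 2 erythroid markers higher and 1 natural killer cell marker lower, all in DC1b cells. In DC1b cells it also called 2 of the 12 monocyte and macrophage markers higher. There 2 of the 15 plasmacytoid DC markers were called lower, with a median log2 fold change of -3.9 over that list. Their part in the differences of the members was not tested. With the erythroid genes taken out before scaling, 6 members were past the threshold in TLI DC2 versus DC1a cells, as before.

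**Figure D5:**
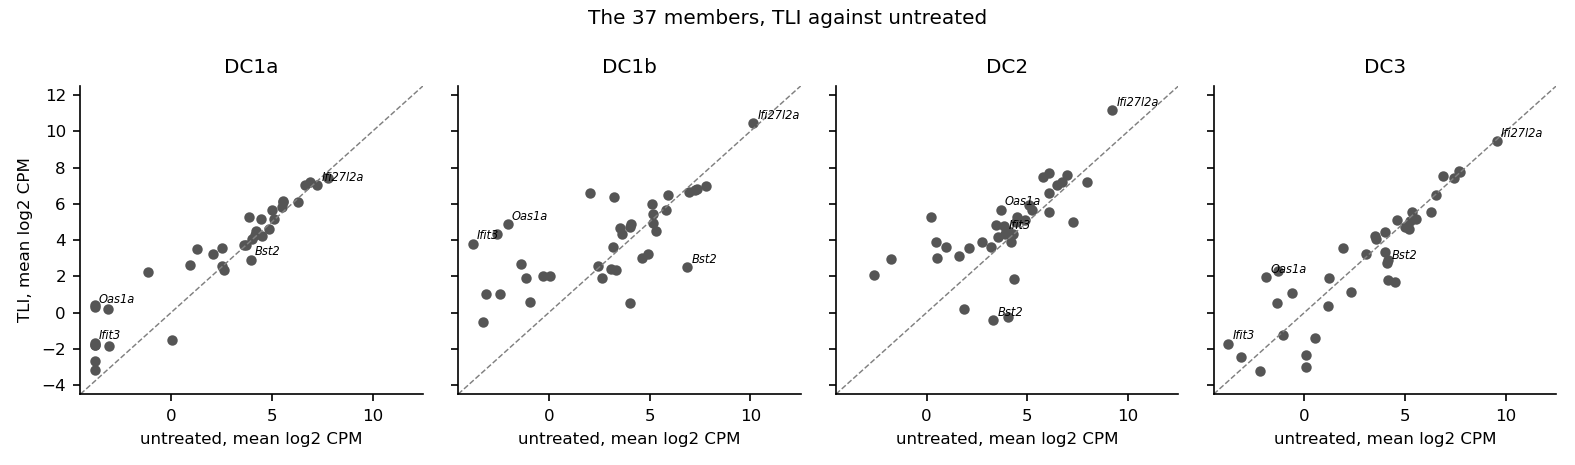
Mean log2 CPM of each member in TLI libraries (y axis) against untreated libraries (x axis) for the 4 populations, with equality as a dashed line. In DC1b cells Ifit3 and Oas1a lie far above the line and Bst2 below it, and none of the 37 members was past the threshold in any panel.

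The 5 smallest p-values of this family, none past the threshold, belonged to Trim30a, Ifit3 and Oas1a. Trim30a was at 97.8, 101, 159 and 157 CPM in TLI DC1b pools 1 to 4 against 237 and 206 CPM untreated, with a log2 fold change of -1.21 ± 0.27 (edgeR adjusted p = 0.0637). In DC2 cells it had the opposite sign, at 150, 224 and 166 CPM in TLI pools 1, 3 and 4 against 39.5 and 76.9 CPM untreated, with a log2 fold change of 1.11 ± 0.31 (edgeR adjusted p = 0.257). Neither pair of groups overlapped. Without an untreated DC2 library the adjusted p in DC1b cells was 0.0447 or 0.0449, and with TLI pools 3 and 4 alone against untreated pools that in DC2 cells was 0.0102.

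Ifit3 in DC1b cells was at 9.40, 27.7, 28.8 and 5.02 CPM after TLI and at 0 in both untreated pools. The TLI mean was at least 156-fold higher than a floor of 3 counts per library (edgeR adjusted p = 0.0952; DESeq2 adjusted p = 1.428e-06). Oas1a, an enzyme that binds double-stranded RNA and makes the oligoadenylate signal for RNase L, was at 26.7, 27.3, 71.5 and 14.6 CPM in TLI DC1b pools 1 to 4 against 0.199 and 0.142 CPM untreated (edgeR adjusted p = 0.178). In DC1a cells it was at 4.21, 7.74, 0.225 and 0.162 CPM after TLI and at 0 in both untreated pools (edgeR adjusted p = 0.353), and the high values were those of batch 1. Oas1a and Oas1g are near-identical copies as well.

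Differences between populations in the TLI effect were tested against DC1a cells, and edgeR called 0 of 37 members in DC1b, DC2 and DC3 cells (0.0357%, 0.0255% and 0% of all genes). In each, 3 members had an unadjusted p under 0.05 (7.49%, 7.25% and 4.16% of all genes). DESeq2 called 2 in each and limma-voom 0, for which no share over all genes is given. The smallest p-values were those of Ifi27l2a in DC2 cells (difference of log2 fold changes 1.95 ± 0.62, edgeR adjusted p = 0.591) and of Trim30a in DC1b (-1.17 ± 0.38, edgeR adjusted p = 0.526) and DC2 cells (1.15 ± 0.39, edgeR adjusted p = 0.638). Oas3 in DC1b and Ifit1 in DC3 cells followed, with edgeR adjusted p = 0.576 and 1.

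Between the batches of the TLI pools, 6 of the 37 members were past the threshold. This share is close to the 17.4% of all genes, so a difference between batches is not particular to the members. Trim30a (log2 fold change of batch 2 relative to batch 1 0.77 ± 0.16, edgeR adjusted p = 0.0033), Samd9l (1.09 ± 0.27, edgeR adjusted p = 0.00889) and Ifi27l2a (0.81 ± 0.26, edgeR adjusted p = 0.0418) were higher in batch 2. Rsad2 (-4.12 ± 1.37, edgeR adjusted p = 0.0473), Ifi35 (-1.39 ± 0.34, edgeR adjusted p = 0.00861) and Bst2 (-2.36 ± 0.77, edgeR adjusted p = 0.0439) were lower. Markers of other cells were lower in batch 2 as well, with 8 of 8 erythroid (median log2 fold change -6.22), 7 of 8 natural killer cell (-6.65), 6 of 8 T cell (-9.03) and 4 of 12 monocyte and macrophage markers (-0.94) past the threshold. Their part in the changes of the members was not tested. Of the members, Trim30a, Samd9l and Ifi35 kept their call in all 23 fits that left out 1 library, and Rsad2, Ifi27l2a and Bst2 kept it in 5, 4 and 5. In the fits that lost the call their adjusted p reached 0.0999 (without TLI DC3 pool 3), 0.0847 (without TLI DC1a pool 2) and 0.130 (without TLI DC2 pool 1).

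Rsad2, or viperin, which makes a chain-terminating nucleotide, was at 54.9 and 26.5 CPM in TLI DC1a pools 1 and 2 and at 2.83 and 3.88 CPM in pools 3 and 4. In TLI DC3 cells it was at 47.2, 3.31, 0.292 and 0 CPM in pools 1 to 4, and in DC1b cells at 13.8, 12.8, 0.719 and 1.39 CPM. In TLI DC2 cells the batches lay close together, with 14.1 CPM in pool 1 and 10.8 and 11.8 CPM in pools 3 and 4. Ifi35 was at 282 and 304 CPM in TLI DC1a pools 1 and 2 against 103 and 104 CPM in pools 3 and 4, at 255 and 341 against 17.5 and 98.0 CPM in DC1b, and at 319 and 348 against 121 and 178 CPM in DC3 cells. Samd9l, a regulator of translation, ranged from 43.2 CPM in TLI DC1b pool 2 to 333 CPM in TLI DC3 pool 3.

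Bst2, or tetherin, which holds budding virus at the plasma membrane and marks plasmacytoid DCs in the resting mouse, had its own pattern. It was at 112 and 122 CPM in untreated DC1b pools 1 and 2 and at no more than 31.8 CPM in each of the other 21 libraries. In TLI DC1b pools 1 to 4 it was at 6.36, 31.8, 16.9 and 0.231 CPM. Despite the gap it was past the threshold in no comparison of populations or treatments. In untreated DC2 versus DC1b cells the edgeR adjusted p was 0.506. In TLI DC2 versus DC1b cells, a comparison without the untreated DC1b libraries, it was 0.408. Some plasmacytoid markers moved with it. Siglech was at 982 and 1654 CPM and Klk1 at 1032 and 2255 CPM in untreated DC1b pools 1 and 2. In TLI DC1b pools 1 to 4 they were at 33.4, 32.1, 10.3 and 0.297 CPM and at 2.17, 10.6, 0 and 14.0 CPM. Irf7, of the same list, was at 64.9 and 90.5 CPM untreated and at 80.2, 79.9, 77.4 and 40.7 CPM in TLI DC1b pools. Over the 15 plasmacytoid markers the median log2 fold change in TLI versus untreated DC1b cells was -3.9, and edgeR called 2 lower. Their part in the difference of Bst2 was not tested.

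The remaining members are grouped by role. Of the IFIT proteins, which bind viral RNA ends, Ifit1 was at 0 in both untreated DC1a libraries, at 32.2 and 10.01 CPM in untreated DC2 pools 1 and 2, and at 4.30, 13.1 and 56.6 CPM in TLI DC2 pools 1, 3 and 4. In TLI DC3 cells it was at 0.295 CPM in pool 1 and at 0 in the others. Ifit2 ranged from 0 to 18.5 CPM, and Ifit3b from 0 to 25.7 CPM over the 23 libraries. Ifit3b exceeded the floor in 10 libraries, among them all 3 of TLI DC2 (15.2, 14.0 and 14.5 CPM).

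Of the OAS enzymes, which signal to RNase L, Oas2 was at 40.3, 31.1 and 45.8 CPM in TLI DC2 and at 22.7 and 21.4 CPM in untreated DC2 libraries, and at no more than 0.547 CPM in the 6 DC1a libraries. Its log2 fold change in TLI DC2 versus DC1a cells was 7.85 ± 2.22 and missed the threshold (edgeR adjusted p = 0.0671). Oas3 was at 25.6, 10.7, 15.3 and 40.9 CPM in TLI DC1b pools 1 to 4 against 0.319 and 0 CPM untreated (edgeR adjusted p = 0.264). Oas1g was at 0 in both untreated DC1a libraries and in 3 of 4 TLI DC1a libraries, and at 13.2, 1.78 and 18.7 CPM in TLI DC2 cells. Oasl1 and Oasl2, which hold a ubiquitin-like tail, reached at most 16.9 CPM, in TLI DC1a pool 2, and 30.0 CPM, in TLI DC1b pool 4. Exons of Oasl1 overlap Gm13822 on the other strand.

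Among the RNA helicases that sense viral RNA, Ifih1 (MDA5) was at 21.3, 113 and 53.9 CPM in TLI DC2 pools 1, 3 and 4 and at 12.2, 16.1, 13.9 and 10.2 CPM in TLI DC1a pools 1 to 4 (log2 fold change 2.07 ± 0.73, edgeR adjusted p = 0.142). Ddx58 (RIG-I) was at 0 in both untreated DC1a libraries and in 2 of 4 TLI DC1a libraries, and at 15.4, 15.7 and 85.2 CPM in TLI DC2 cells. Dhx58 (LGP2) ranged from 0 to 41.0 CPM, with an antisense gene, Dhx58os, over its exons. None of the 3 helicases was past the threshold in any comparison.

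The ISG15 system, which tags proteins with the ubiquitin-like ISG15, varied widely between pools. Isg15 ranged from 0 to 40.6 CPM, Usp18, which removes the tag and blocks the receptor, from 3.90 to 215 CPM, and Herc6, the ligase in mice, from 7.91 to 83.1 CPM. Usp18 was at 14.4 and 73.6 CPM in untreated DC1a pools 1 and 2 and at 4.15 and 65.2 CPM in DC1b, so that pools of 1 group lay far apart. The highest group mean was that of untreated DC2 cells, with 215 and 111 CPM in pools 1 and 2. TLI DC1a pools 1 to 4 were at 118, 150, 13.0 and 26.6 CPM. Exons of Usp18 and Herc6 overlap Gm44148 and Gm45193.

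Mx1, a GTPase that most laboratory strains carry in a deleted form, was at 65.5, 88.5, 66.6 and 57.5 CPM in TLI DC1a pools 1 to 4 and at 32.4, 19.03, 42.6 and 32.2 CPM in DC1b pools 1 to 4, with no overlap (log2 fold change -1.18 ± 0.41, edgeR adjusted p = 0.208). In untreated DC2 pools 1 and 2 it was at 30.8 and 14.6 CPM against 78.5 and 80.3 CPM in DC1a (edgeR adjusted p = 0.153). Mx2, listed as a polymorphic pseudogene, ranged from 0 to 39.4 CPM.

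Of the other RNA and nucleic acid effectors, Zbp1, a sensor of Z-form nucleic acid that starts necroptosis, was at 86.2, 115, 84.6 and 109 CPM in TLI DC1b pools 1 to 4 and at 0.678 and 22.8 CPM in untreated DC1b pools 1 and 2. Eif2ak2 (PKR), which halts translation, ranged from 0.659 to 59.0 CPM, Isg20, an RNA exonuclease, from 0 to 249 CPM, and Cmpk2, a nucleotide kinase of mitochondria next to Rsad2, from 0.0713 to 31.0 CPM. Slfn5 and Slfn8, of the Schlafen family, reached 32.7 and 45.7 CPM. Parp9 and Dtx3l, whose exons overlap on opposite strands, ranged from 16.1 to 80.4 and from 7.21 to 51.4 CPM, and Phf11d from 4.31 to 91.8 CPM. Zbp1, Eif2ak2, Isg20, Cmpk2, Slfn5, Slfn8, Parp9, Dtx3l and Phf11d were past the threshold in no comparison.

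The genes of the pathway that leads to the module were read from lists of ligands, receptor and kinases, transcription factors, sensors and negative regulators. The 18 ligand genes summed to at most 2.82 CPM in any library, and 1 of them passed the filter. The 4 receptor and kinase genes were over the floor in every library. Ifnar1 was lower in TLI DC1b cells, at 77.3, 32.6, 21.7 and 9.87 CPM in pools 1 to 4 against 280 and 274 CPM untreated (log2 fold change -2.70 ± 0.40, edgeR adjusted p = 0.00667). The groups did not overlap, and all other libraries lay at 127 CPM or below. Ifnar2 was higher in untreated DC1b cells (482 and 506 CPM) than in untreated DC1a cells (134 and 124 CPM), with a log2 fold change of 1.94 ± 0.40 (edgeR adjusted p = 0.0276). The plasmacytoid markers Siglech and Klk1 were also highest in untreated DC1b cells, though Irf7 of the same list was not. The part of these markers was not tested.

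None of the 7 transcription factor genes was past the threshold between populations or treatments. Irf7, which drives interferon genes, was at 120, 139, 39.3 and 32.0 CPM in TLI DC1a pools 1 to 4 and was lower in batch 2 (log2 fold change -1.30 ± 0.25, edgeR adjusted p = 0.00179). Irf9 was at 93.7, 107, 35.8 and 28.7 CPM in the same libraries but was not past the threshold between batches. In TLI DC1b pools 1 to 4 it was at 60.0, 67.3, 1.53 and 80.2 CPM. TLI DC2 pools 1, 3 and 4 had 47.5, 49.6 and 69.7 CPM, and TLI DC3 pools 1 to 4 had 102, 121, 18.5 and 73.3 CPM.

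Of the 12 sensors and adaptors, Tlr3 and Tlr7, endosomal receptors for double-stranded and single-stranded RNA, were past the threshold between populations. Tlr3, which also served as a cDC1 marker, was at 123, 236, 361 and 361 CPM in TLI DC1a pools 1 to 4 and at 4.38, 1.01 and 0.911 CPM in TLI DC2 pools 1, 3 and 4 (log2 fold change -6.85 ± 0.82, edgeR adjusted p = 8.331e-05). It was also lower in DC2 than in DC1b and DC3 cells after TLI, and lower in DC2 than in DC1a and DC3 cells of untreated mice. Tlr7 ran the other way, at no more than 0.283 CPM in TLI DC1a libraries and at 62.4, 48.6 and 92.3 CPM in TLI DC2 pools 1, 3 and 4 (edgeR adjusted p = 0.0198). In TLI DC1b pools 1 to 4 it was at 49.0, 26.6, 97.0 and 289 CPM (edgeR adjusted p = 0.0213 relative to DC1a).

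Among the 9 negative regulators, which include the member Usp18, Irf2bp2, a corepressor that acts with IRF2, was past the threshold most often. It was at 278 and 304 CPM in untreated DC1b pools 1 and 2 and at 39.5, 51.3, 130 and 61.1 CPM in TLI DC1b pools 1 to 4 (log2 fold change -2.79 ± 0.45, edgeR adjusted p = 0.0107). It was higher in DC1b than in DC1a cells in both treatments, and higher in TLI DC2 than in TLI DC1a cells (log2 fold change 2.59 ± 0.40, edgeR adjusted p = 0.0011). Trex1, a DNA exonuclease, was lower in TLI DC2 than in TLI DC1a cells (log2 fold change -2.56 ± 0.56, edgeR adjusted p = 0.0153). The other genes of these lists were past the threshold in no comparison of populations or treatments.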

How the data were processed

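The authors deposited a table of estimated counts per gene, which the submitters' processing notes tie to Trimmomatic, HISAT2, StringTie (prepDE), DESeq2 and GRCm38. The deposited counts are whole numbers estimated from transcript coverage, so they were treated as rounded expected counts. Whether counting used strand is not given in the sources used here. Libraries were made from sorted cells with SMARTseq v4 and KAPA HyperPlus.

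Genes were filtered with edgeR's filterByExpr, scaled by TMM, and fitted over all 23 libraries with a term for each treatment and population and a batch term (edgeR 4.0.16 quasi-likelihood test in R 4.3.3). P-values were adjusted by Benjamini-Hochberg over all 19597 genes, and an adjusted p under 0.05 was the threshold. Because batch 2 holds TLI pools only, TLI against untreated rests on the batch 1 level. CPM values use TMM-scaled library sizes. The members, marker lists and pathway lists were chosen with earlier results of these data known. Named members were those past the threshold, plus the 5 smallest p-values of the TLI comparisons and of the differences between them. The populations of a pool came from the same mice by the labels. Over 30 pairs, residuals of libraries of the same pool correlated at -0.0153 to 0.135 (median 0.00815). Each group in these pairs held 2 pools per batch, whose residuals mirror each other. Each correlation therefore recurs in the other pool, and the pairs are not independent. Alternatives were DESeq2 1.42.0, limma-voom 3.58.1 with the pool as a random block, the pool as a fixed block, other scaling, no filter, no batch term, single batches, single treatments and leaving out each library. The fits were tested on simulated data for TLI DC2 versus DC1a cells. There edgeR recovered 1.49%, 10.4% and 34.8% of 2-fold, 4-fold and 16-fold changes, with 0 false calls. DESeq2 recovered 7.46%, 31.3% and 63.6% with 182 false calls, and limma-voom 1.49%, 7.46% and 31.8% with 3. A member not past the threshold of edgeR may therefore still have changed. Gene positions came from GENCODE vM21 and promoter windows from RefSeq.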

Additional observations from a re-analysis of the deposited data

Results flagged for a closer look

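Within the TLI groups of 4 libraries, 6 of 51 tests found a library whose gap to its nearest neighbour exceeded Dixon's critical value of 0.829 of the group's range. Chance gives about 1 in 20 such flags among untied values, and this rate does not apply to the 3 flags in which the other libraries were tied at 0. Ifit1 in TLI DC3 pool 1 was at -1.45 log2 CPM, or 0.295 CPM, with the others at 0. Ifi44 in TLI DC1b pool 3 was at 7.74 log2 CPM, or 213 CPM, against 79.5 to 89.6 CPM in the others. Samd9l in TLI DC1a pool 1 was at 6.15 log2 CPM, or 70.9 CPM, against 154 to 168 CPM. Ifi27l2a in TLI DC3 pool 2 was at 8.08 log2 CPM, or 271 CPM, against 896 to 1050 CPM. Oas1g in TLI DC1a pool 3 was at -1.34 log2 CPM, or 0.322 CPM, and in TLI DC3 pool 3 at 1.58 log2 CPM, or 2.92 CPM, with the others at 0 in both groups.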

How the results depend on the processing

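No result changed its direction past the threshold, and counts of members past the threshold moved most with the tool. For DESeq2 the share over all genes is given above in the TLI versus untreated comparisons only. The other counts in this section have no such share beside them, so they describe the fits and are not read as results about the members. DESeq2 gave 5, 7, 1 and 1 members for TLI versus untreated DC1a, DC1b, DC2 and DC3 cells, 2 for each difference between populations, 9, 12, 2, 4 and 7 for TLI DC1b, DC2 and DC3 versus DC1a, DC3 versus DC1b and DC3 versus DC2, and 10, 12, 5, 6, 2 and 4 for untreated DC1b and DC2 versus DC1a, DC2 versus DC1b, and DC3 versus DC1a, DC1b and DC2. With the pool as a random replicate block in limma-voom, TLI versus untreated DC1b gave 5, the TLI comparisons DC1b, DC2 and DC3 versus DC1a, DC3 versus DC1b and DC3 versus DC2 gave 4, 12, 3, 3 and 6, and untreated DC1b and DC2 versus DC1a, DC2 versus DC1b and DC3 versus DC2 gave 2, 6, 2 and 3. With the pool as a fixed replicate block, TLI DC2 versus DC1a gave 3 and untreated DC2 versus DC1b and DC3 versus DC2 gave 0. Without a batch term, TLI DC1b and DC2 versus DC1a gave 1 and 2, and TLI DC3 versus DC2 and untreated DC1b and DC2 versus DC1a, DC2 versus DC1b and DC3 versus DC2 gave 0. Without a filter, TLI versus untreated DC1b gave 1, TLI DC3 versus DC1b and DC2 gave 2 and 5, and untreated DC1b, DC2 and DC3 versus DC1a gave 2, 4 and 1. Batch 1 alone gave 1 for TLI DC1b and DC2 versus DC1a and 0 for DC3 versus DC1a and DC2, and batch 2 alone gave 2, 0 and 1 for DC2 and DC3 versus DC1a and DC3 versus DC1b. A fit of 1 treatment alone gave 0, 1 and 0 for untreated DC2 versus DC1b, DC3 versus DC1a and DC3 versus DC2. TLI pools 3 and 4 against untreated gave 4 in DC2 cells. That setting, batch 1 alone and the removal of erythroid genes were chosen after seeing the data. With a prior count of 0.5 the mean over the members was 1.74, 3.79 and 2.72 in untreated DC1a, DC2 and DC3 cells. The cause of these changes was not tested.

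Leaving out 1 library gave 0 to 1 members for TLI versus untreated DC1b and 0 for the other treatment comparisons and differences. It gave 1 to 3, 2 to 7, 1 to 2, 0 to 1 and 0 to 2 for TLI DC1b, DC2 and DC3 versus DC1a, DC3 versus DC1b and DC3 versus DC2, and 0 for TLI DC2 versus DC1b. For untreated DC1b and DC2 versus DC1a, DC2 versus DC1b and DC3 versus DC2 it gave 0 to 1, 0 to 3, 0 to 1 and 0 to 2, and 0 for DC3 versus DC1a and DC1b, where a group left with 1 library is assumed to vary like the others. The batch comparison gave 3 to 6. The mean over the members ranged over 2.87 to 3.27, 3.83 to 4.19, 4.54 to 4.86 and 2.78 to 3.11 log2 CPM in TLI DC1a, DC1b, DC2 and DC3 cells, and 2.19 to 2.20, 2.64 to 3.13, 3.84 to 3.97 and 2.80 to 3.14 in untreated cells. At this depth a level under 0.0862 to 0.147 CPM could not be told from 0, and Oas1g exceeded 3 counts in 9 of the 23 libraries.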

Other observations

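Several members were near the floor in 1 library of a group and well expressed in another of the same group. In 15 of 296 pairs of a member and a group (5.07%), 1 library had at most 3 counts beside another at 10 CPM or more, compared with 4.25% of pairs over the 14015 genes with a mean of at least 1 CPM. The pairs involved 12 members. Isg20 was at 111 CPM in TLI DC2 pool 1 and at 0 in pools 3 and 4, and Zbp1 was at 0 and 18.6 CPM in untreated DC2 pools 1 and 2. The fitted log2 fold changes of such genes rest on few libraries.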
